A study of Rattus norvegicus with 24 samples.

Results

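This report describes 7 genes for secreted or shed signals that sensory neurons can pass to glia, immune cells and other neurons: Csf1, Il34, Ccl2, Cx3cl1, Il24, Areg and Lif. They are 7 of the 32881 genes shared by the count files. They were chosen by name as signals, but with earlier results of these data known. The cells were neurons of the lumbar (L4 and L5) dorsal root ganglia (DRG) of male SD rats, picked singly by mouth pipette. In the spared nerve crush (SNC) groups the tibial and common peroneal branches were crushed and the sural branch was spared, and neurons were taken 1, 3 or 7 days later. In the sham group the sciatic nerve was exposed without injury. There were 4 sham samples (DRG samples Xin, 4, 10 and 18), 4 at SNC 1 d (13, 16, 17-1 and 17-2), 3 at SNC 3 d (14, 15 and 17-3) and 5 at SNC 7 d (S, 8, 9, 19-1 and 19-2). A further 7 sham samples (S1 to S7) were deposited later as new libraries, labelled 0 days (S1, S2, S7), 1 day (S3, S6), 3 days (S4) and 7 days (S5) after sham surgery, and are called the added sham samples. In the other 16, called the earlier samples, dye had been put into branches of the sciatic nerve.

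Of 1464 cells, 1433 passed quality control, 930 in the 16 earlier samples and 503 in the added sham samples. A DRG sample held 4002503 to 28975829 unique molecular identifiers (UMIs, each standing for 1 captured transcript) in the earlier set and 14004136 to 40732975 in the added set. A level is given as CPM (counts per 1e6 counts), the gene's UMIs per 1e6 UMIs summed over all cells of a DRG sample, and as mean ± SD over samples. Cell names did not carry the dye colour, so neurons with crushed and with spared axons were summed together, and in such sums fewer cells with a transcript and fewer transcripts per cell cannot be told apart. The labels do not say that samples of a group came from separate animals, so p-values measure the spread between these samples unless stated otherwise. The neuron marker list summed to 6270 to 8924 CPM in the earlier samples and to 4925 to 5827 CPM in the added ones. The list for satellite and Schwann glia was at 247 to 1497 CPM in sham, 405 to 1278 at 1 d, 251 to 427 at 3 d, 214 to 388 at 7 d and 148 to 854 in the added sham samples.

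CSF1 and IL-34 are both ligands of the receptor CSF1R, through which microglia and macrophages survive and divide, and CSF1 is known as a product of axotomised sensory neurons. CCL2 is a chemokine that draws cells with the receptor CCR2, and CX3CL1 is held in the membrane until the proteases ADAM10 and ADAM17 shed it to meet CX3CR1 on microglia and macrophages. IL-24 belongs to the IL-10 family and signals through pairs of IL20RA or IL22RA1 with IL20RB, amphiregulin (Areg) activates the epidermal growth factor receptor, and LIF signals through LIFR with gp130 (Il6st). Sprr1a, a cornified-envelope protein gene that axotomised neurons switch on, served here to class single neurons, although its level did not separate sham from SNC samples.

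RefSeq promoter windows (build GRCr8, the 250 bases before the gene start) were at hand for 4 of the 8 genes, the members Il24, Areg and Cx3cl1 and the reference gene Sprr1a. They are shown because Il24 rose with Sprr1a, as given further on, and because Areg and Cx3cl1 followed other patterns. Both strands were searched for the AP-1 site TGANTCA and the cAMP response element TGACGTCA, which do not overlap in the windows printed, and matches are in capitals. The windows are chr2:180752626-180752875, chr13:44910761-44911010, chr14:17265642-17265891 and chr19:10242821-10243070, all on the minus strand and written 5′ to 3′.
Sprr1a: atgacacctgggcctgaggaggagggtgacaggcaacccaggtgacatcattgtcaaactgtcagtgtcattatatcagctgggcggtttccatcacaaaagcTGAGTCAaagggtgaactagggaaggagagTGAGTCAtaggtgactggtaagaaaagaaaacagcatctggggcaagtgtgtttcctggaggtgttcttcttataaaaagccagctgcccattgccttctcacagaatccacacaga
Il24: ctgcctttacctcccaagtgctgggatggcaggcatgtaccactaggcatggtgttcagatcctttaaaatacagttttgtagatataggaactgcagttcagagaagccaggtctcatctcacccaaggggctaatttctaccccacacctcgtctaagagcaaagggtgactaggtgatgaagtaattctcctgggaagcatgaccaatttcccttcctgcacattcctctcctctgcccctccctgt
Areg: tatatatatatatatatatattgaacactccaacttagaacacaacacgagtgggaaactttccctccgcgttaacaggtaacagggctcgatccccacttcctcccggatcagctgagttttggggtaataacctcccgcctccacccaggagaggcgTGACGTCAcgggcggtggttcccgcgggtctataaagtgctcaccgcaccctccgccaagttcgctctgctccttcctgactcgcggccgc
Cx3cl1: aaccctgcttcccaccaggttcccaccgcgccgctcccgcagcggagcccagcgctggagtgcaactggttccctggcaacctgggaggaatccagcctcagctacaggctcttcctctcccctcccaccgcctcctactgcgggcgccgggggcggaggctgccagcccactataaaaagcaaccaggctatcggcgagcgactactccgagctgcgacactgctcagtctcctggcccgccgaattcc
The Sprr1a window held 2 AP-1 matches, beginning 147 and 117 bases before the start. The Areg window held 1 cAMP response element, 91 bases before the start. Neither motif was found in the Il24 or Cx3cl1 window. Over 33469 rat promoters of that length, 6.34% held the AP-1 letters and 1.59% the cAMP response element.

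The first question was which neurons hold each signal. Ccl2 (ENSRNOG00000007159) had at least 1 UMI in 97.3% of the 930 earlier cells (exact 95% binomial interval 96.1 to 98.2%, which like every interval here covers counting error only). Csf1 (ENSRNOG00000018659) was present in 73.2% (70.3 to 76.0%) and Il24 (ENSRNOG00000004470) in 65.5% (62.3 to 68.5%). Areg (ENSRNOG00000002754), Il34 (ENSRNOG00000017602) and Cx3cl1 (ENSRNOG00000016326) were rarer, at 14.5%, 11.2% and 4.41% of cells. Lif (ENSRNOG00000007002) had 2 UMIs in 2 of the 930 cells and 3 UMIs in 2 of the 503 added cells, so that no pattern could be read from it. After each cell was thinned to 50000 UMIs, leaving out 120 shallower cells, the shares were 97.0% for Ccl2, 55.8% for Csf1, 42.1% for Il24, 7.41% for Areg, 4.81% for Il34 and 1.48% for Cx3cl1.

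The signals were unevenly held. The tenth of cells richest in each gene carried 63.1% of all Csf1 UMIs, 69.4% of Il24 UMIs and 34.2% of Ccl2 UMIs, against 97.5% for Areg and 98.0% for Il34. Single neurons reached 569 CPM of Csf1, 642 CPM of Il24, 472 CPM of Areg and 7113 CPM of Ccl2. Csf1 and Il24 were found together in 480 of the 930 cells. Of the cells with Areg, 93.3% also had Csf1, and of those with Il34, 85.6% did.

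The cells were clustered without the 7 genes and Sprr1a, so that a cluster's level of a member was not what defined it. Of 10 clusters in the earlier set, 9 were called like a neuron class from markers: peptidergic (PEP-like, 1 and 2), nonpeptidergic (NP-like, 0 and 6), neurofilament (NF-like, 3 and 4), somatostatin (SST-like, 5 and 7) and cold-sensing (Cold-like, 9). Cluster 8 had 8 of 9 glial markers raised beside 3 of 4 cold-neuron markers and was left unnamed. Cluster 0 carried only 3 of 8 NP markers, P2rx3 and Gfra2 among them, and had Anxa1 among its leading genes. Cluster 1 carried 3 of 11 PEP markers, Kit and Cck among them. Cluster 5 carried 4 of 6 SST markers (Nppb, Il31ra, Osmr and Jak1) without Sst itself, which was the leading gene of cluster 7.

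Csf1 was highest in NF-like cluster 4, marked by Kcnv1 (101 ± 38.9 CPM, n = 15 samples with at least 3 such cells), then in NF-like cluster 3, marked by Pvalb and Shox2 (76.6 ± 44.3, n = 12), and in PEP-like cluster 1 (59.0 ± 25.3, n = 16). These 3 clusters held 29.2%, 32.2% and 21.5% of Csf1 UMIs. Neighbours among them lay within the larger SD of each other, and the step from cluster 1 down to cluster 8 (32.5 ± 12.8, n = 7) was the only gap between neighbours wider than the larger SD. Csf1 was low in PEP-like cluster 2 (12.7 ± 8.52), which had 10 of 11 PEP markers, and in NP-like cluster 6 (4.80 ± 5.22). The NF-like clusters also had the deepest cells, at a median of 526885 and 449684 UMIs per cell.

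Il24 was led by another class of neuron. NP-like cluster 0 reached 231 ± 107 CPM (n = 16), with a UMI in 84.0% of its cells, and held 46.7% of all Il24 UMIs in 20.9% of the cells. SST-like cluster 5, where Sst itself was not raised, followed at 134 ± 65.3 (n = 12), then NF-like cluster 4 at 65.7 ± 71.9. Each of these neighbours lay within the larger SD of the next. PEP-like cluster 2, SST-like cluster 7 and Cold-like cluster 9 had 3.26 ± 2.90, 3.70 ± 2.31 and 2.44 ± 1.97 CPM.

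Areg was concentrated in NF-like neurons. Cluster 4 held 70.5% of Areg UMIs in 9.03% of the cells, at 36.6 ± 46.5 CPM, and cluster 3 held 23.1% at 8.87 ± 10.3. Elsewhere its mean was under 1 CPM. Il34 was highest in cluster 8, where glial markers were raised (21.2 ± 12.3 CPM, with a UMI in 57.1% of 42 cells), beyond the spread of the next cluster (NF-like 4, 4.36 ± 9.11). Cluster 8 held 30.6% of Il34 UMIs in 4.52% of the cells, and whether the transcripts came from the neurons or from attached glia was not tested. Ccl2 was also highest there (639 ± 122), and then ran in small steps from SST-like cluster 7 (466.4 ± 125) to NP-like cluster 0 (219 ± 110). Cx3cl1 did not exceed 1.47 ± 2.09 CPM in any cluster of the earlier set.

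**Figure D1:**
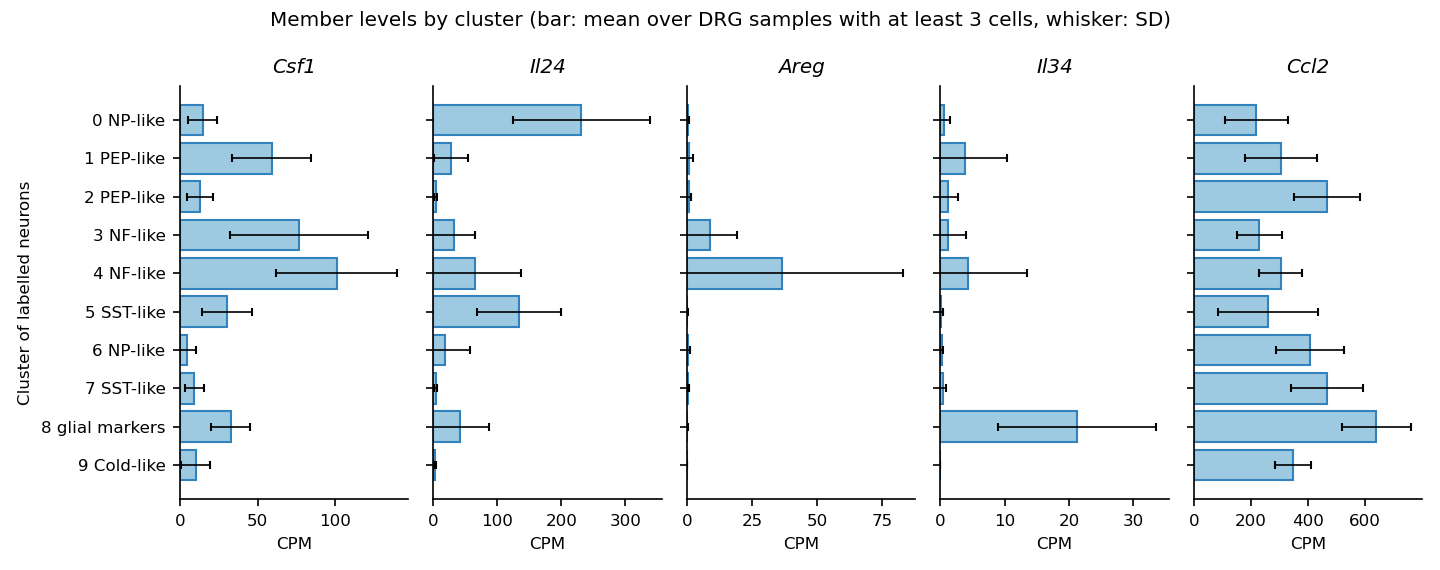
Levels of Csf1, Il24, Areg, Il34 and Ccl2 in CPM (x axes, each with its own range) by cluster of the earlier samples, called labelled in the plot, each bar the mean and each whisker the SD over those DRG samples that had 3 or more such cells. Csf1 is highest in NF-like clusters 4 and 3 and PEP-like cluster 1, Il24 in NP-like cluster 0, Areg in NF-like cluster 4, and Il34 in cluster 8.

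The second question was how each signal relates to the injury gene Sprr1a within the same DRG sample. Of the 930 earlier cells, 514 were at or above 50 CPM of Sprr1a (called Sprr1a-high) and 416 below it (Sprr1a-low). Sprr1a-high neurons made up 45.1% of sham cells (31.3 to 83.3% by sample), 53.4% at 1 d (48.9 to 70.8%), 54.0% at 3 d (44.2 to 62.5%) and 67.5% at 7 d (37.5 to 75%). The ranges after the crush lay within that of sham, so the sham samples held many neurons with this gene. The Sprr1a level was 152 ± 96.8 CPM in sham and 167 ± 52, 144 ± 17.5 and 149 ± 58.6 at 1, 3 and 7 d. The class was unevenly spread over clusters, from 89.3% of cluster 1 and 80.9% of cluster 0 to 3.39% of cluster 6. Median depth was 225618 UMIs in high and 258775 in low cells, and the glial list was at 539 ± 382 and 458 ± 326 CPM.

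Il24 rose most. Its level was 98.6 ± 34.2 CPM in Sprr1a-high and 17.0 ± 22.2 in Sprr1a-low neurons (n = 16 samples), higher in the high class in 14 of 16. The exceptions were sham Xin (88.3 against 92.5 CPM, with 4 low cells) and SNC 7 d 19-1 (3.26 against 8.35). With DRG sample as a block, the edgeR quasi-likelihood fit gave a log2 fold change of 3.06 (SE 0.36, Benjamini-Hochberg adjusted p = 1.11e-06). Csf1 rose with it, from 21.9 ± 15.1 to 70.1 ± 32.9 CPM and in 15 of 16 samples, at a log2 fold change of 1.78 (SE 0.18, edgeR adjusted p = 1.74e-07). Sham 4 was the exception for Csf1, at 8.98 against 8.99 CPM. The fit tested 11896 genes and called 19.9% higher and 18.1% lower in Sprr1a-high neurons, against 3 of the 5 members tested called higher and 0 lower.

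Il34 was the third call, at 3.06 ± 2.54 CPM in high and 1.39 ± 2.22 in low neurons, higher in 12 of 16 samples (log2 fold change 1.25, SE 0.45, edgeR adjusted p = 0.0347). The call was lost without the sample block (1.22, adjusted p = 0.0754) and, with adjusted p of 0.0534 to 0.0722, when any of sham 4 or 10, SNC 1 d 16 or 17-2, SNC 3 d 17-3 or SNC 7 d 19-2 was left out, and Il34 fell below the filter on low counts without cluster 8. Ccl2 did not pass the test, at 309 ± 70.4 against 344 ± 101 CPM (log2 -0.08, edgeR adjusted p = 0.625, higher in 7 of 16). Areg did not pass either, at 6.97 ± 6.54 against 5.07 ± 4.70 CPM (log2 0.38, edgeR adjusted p = 0.478, higher in 10 of 16). Cx3cl1 had 38 UMIs in high and 63 in low cells and was not tested.

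Since clusters differ in their share of Sprr1a-high cells, the comparison was also made within cluster and sample. Each cluster of a sample with at least 3 cells of both classes was a pair of its own. Several pairs thus came from the same sample, and p-values of that fit do not measure the spread between samples. Clusters 6 and 7, with 2 Sprr1a-high cells each, could not enter it. There Csf1 kept a log2 fold change of 1.62 (edgeR adjusted p = 2.33e-05) and Il24 one of 2.44 (adjusted p = 2.34e-06). Ccl2 turned to higher in Sprr1a-high neurons (log2 0.60, adjusted p = 0.0176), against lower without the cluster in the block, and after thinning it was called lower (-0.26, adjusted p = 0.0291). In the 4 sham samples alone Csf1 (log2 2.01, adjusted p = 0.0882) and Il24 (3.39, adjusted p = 0.068) had differences of similar size that did not pass. The difference between Sprr1a classes was not called different in SNC and sham samples for any of the 5 members (edgeR interaction, Csf1 -0.23, adjusted p = 0.991, and Il24 -0.39, adjusted p = 0.995).

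**Figure D2:**
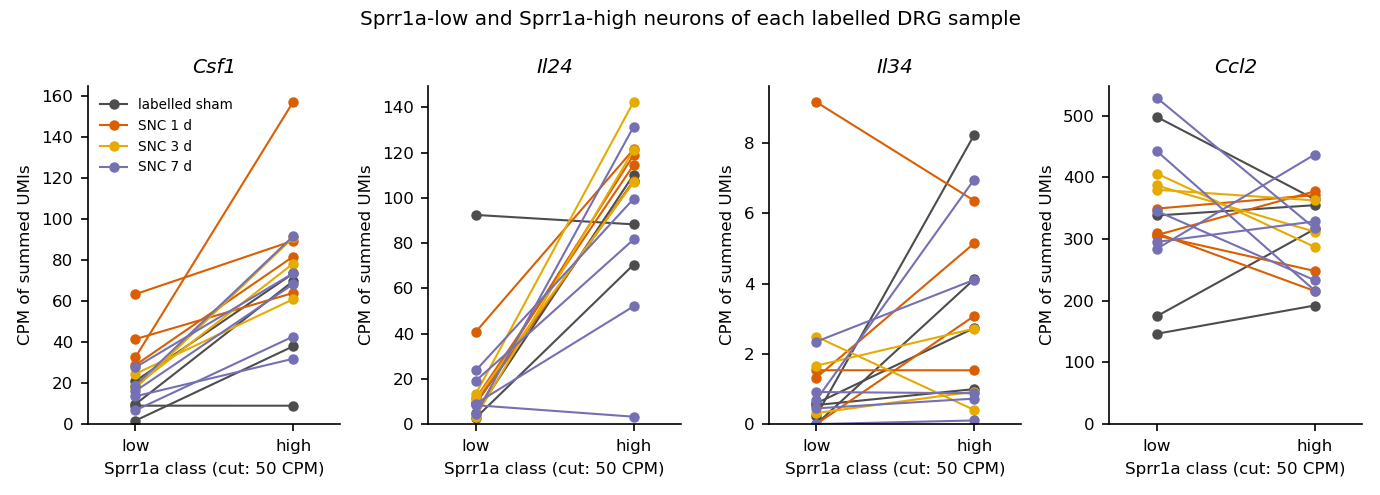
Levels of Csf1, Il24, Il34 and Ccl2 in CPM (y axes) in Sprr1a-low and Sprr1a-high neurons, coloured by group, with a line joining the 2 classes of each of the 16 DRG samples. Lines climb in 15 of 16 samples for Csf1 and 14 of 16 for Il24, and in 7 of 16 for Ccl2.

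In finer steps of Sprr1a, Csf1 and Il24 differed. Csf1 was at 12.5 ± 8.90 CPM in the 142 cells without Sprr1a and 11.4 ± 6.44 below 10 CPM of Sprr1a, reached 42.7 ± 39.7 between 10 and 50 and 76.8 ± 44.9 between 50 and 200, and was 65.7 ± 26.6 in the 287 cells at 200 CPM or more. Il24 climbed through every step, from 4.14 ± 4.68 to 6.20 ± 6.21, 26.5 ± 28.2, 58.2 ± 35.5 and 134 ± 59.8 CPM. The cells without Sprr1a were shallower (median 97320 UMIs) than those of the other steps. The steps also mix clusters. Median Sprr1a was 205 and 216 CPM in cells of clusters 0 and 1, and 49.5 and 55.2 in NF-like clusters 3 and 4. The part of cluster make-up in these steps was not tested. Ccl2 went from 403 CPM in the lowest step to 308 in the highest.

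**Figure D3:**
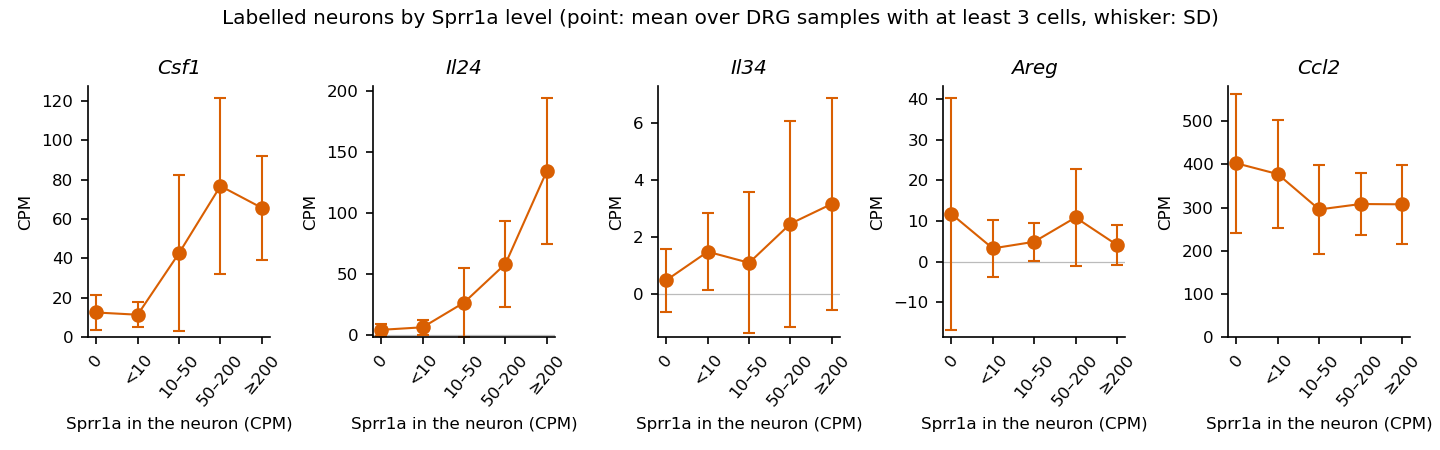
Levels of Csf1, Il24, Il34, Areg and Ccl2 in CPM (y axes, with the mean as a point and the SD as a whisker, over DRG samples with at least 3 cells) in cells of the earlier samples grouped by their Sprr1a level in CPM. Il24 climbs through every step to 134 CPM, and Csf1 levels off at 76.8 and 65.7 CPM in the upper 2 steps. Each step mixes cells of different clusters.

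Csf1 and Il24 also had different closest genes. Likeness was the Spearman correlation across the cells of a DRG sample, averaged over samples, among 13567 genes, where the points of a sample share its depth and no test was made. Il24 was most like Cnga4 (mean rho 0.44, 22 samples), a cyclic nucleotide-gated channel subunit, and then Sprr1a (0.41, 17 samples), Prrg4 and Sdc1. Csf1 was most like Ahr, the aryl hydrocarbon receptor (0.47, 23 samples), then Fxyd5, Phactr2, Clmp and Rbp4, with Sprr1a at 0.34. Ccl2 was most like Bdnf, a neurotrophin (0.42), the immediate early genes Fos (0.40) and Junb (0.33), and the chemokine Ccl7 (0.33). Il34 was most like Gas7 and Erbb3 (0.37 each), the last a neuregulin receptor of Schwann cells. Areg was most like Dleu7 (0.42), Cnr1, the cannabinoid receptor CB1 (0.42), and Sema5a (0.41), and Cx3cl1 most like Rpe65 (0.30, 14 samples).

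The third question was how levels moved with days after the crush. Csf1 in sham was 32.5 (Xin), 8.99 (4), 44.4 (10) and 38.3 CPM (18). At SNC 1 d it was 53.3 (13), 53.8 (16), 81.3 (17-1) and 99.3 CPM (17-2). Every 1 d sample lay above every sham sample, and sham 4 was far below the other sham samples. At SNC 3 d Csf1 was 42.9 (14), 56.5 (15) and 42.9 CPM (17-3), and at 7 d it was 53.0 (S), 75.1 (8), 61.5 (9), 17.2 (19-1) and 23.5 CPM (19-2), both overlapping sham. Group means were 31.0 ± 15.5, 71.9 ± 22.5, 47.4 ± 7.85 and 46.0 ± 24.8 CPM. The fitted log2 fold changes against sham were 1.13 (SE 0.45), 0.58 and 0.51, with edgeR adjusted p of 0.534, 0.966 and 1.000, so that none passed.

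That outcome was shared by all genes. At each of the 3 times, 0 of 14239 genes tested (0%) passed an adjusted p of 0.05 in edgeR, 0 of the 6 members among them. An unadjusted p under 0.05 was reached by 1243 genes at 1 d, 594 at 3 d and 476 at 7 d, and DESeq2 called 9, 1 and 0 genes. At 1 d, 2 of the 6 members (Csf1 and Cx3cl1) had every sample above every sham sample, where 2.35% of all genes did. At 3 d it was 1 of 6 (Cx3cl1) against 3.14% of genes, and at 7 d 0 of 6 against 0.681%. Cx3cl1 had 0 UMIs in sham and passed the low-count filter through its SNC samples alone. Any sample with a UMI thus lay above sham, so Cx3cl1 adds no support to these counts.

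The years of reverse transcription divided the 7 d samples. All 4 samples at 1 d and all 3 at 3 d were of 2020, as was 1 of the 4 sham samples. Year and crush can thus hardly be told apart at these times. Among samples of 2019, Csf1 at 7 d was 53.0 to 75.1 CPM (n = 3) and above the 3 sham samples, at 8.99 to 44.4. Among those of 2020, the 2 samples at 7 d averaged 20.4 CPM, below the 1 sham sample (38.3), the 1 d mean (71.9) and the 3 d mean (47.4). Of the 7 d samples, the 2 low ones, 19-1 and 19-2, are also those whose labels give unequal numbers of cells by injury. By those labels 19-1 held 4 indirectly and 20 directly injured cells and 19-2 the reverse, and Il24 was 6.86 CPM in the first and 73.4 in the second, with Sprr1a at 54.9 and 131 CPM. With 1 sample of each kind that difference has no replicate check. The paper's Results place the green dye in the crushed branches and its Methods the red one. Which of the samples was rich in crushed neurons therefore rests on the labels.

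Within PEP-like cluster 1, a level chosen for display after its values were seen, Csf1 was 43.0 ± 16.3 CPM in sham (18.9 to 53.9, n = 4), 85.5 ± 13.3 at 1 d (70.0 to 101, n = 4), 81.0 ± 13.6 at 3 d (66.8 to 93.8, n = 3) and 37.5 ± 8.57 at 7 d (28.7 to 50.7, n = 5). In NF-like cluster 3 Csf1 was 42.9 ± 34 CPM in sham (n = 3). It was 93.1 ± 36 at 1 d (n = 2), 79.2 ± 31 at 3 d (n = 3) and 91.8 ± 61 at 7 d (n = 4). The 7 d mean of cluster 3 thus stayed above its sham mean, within a wide spread. The differences in either cluster were not tested. In NF-like cluster 4 the group means were 79.7 ± 61.5 CPM in sham (n = 3) and 106 to 107 at the 3 times, within the sham spread.

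Il24 did not move beyond its spread after the crush. It was 88.9 (Xin), 33.0 (4), 41.9 (10) and 39.5 CPM (18) in sham, and Xin stood apart from the other 3. It was 62.9 to 84.5 CPM at 1 d, 50.0 to 81.8 at 3 d and 6.86 to 79.5 at 7 d. Fitted log2 fold changes were 0.44, 0.32 and -0.01, with edgeR adjusted p of 0.821, 0.985 and 1.000. In NP-like cluster 0 Il24 was 184 ± 95.8 CPM in sham and 304 ± 107, 235 ± 49.0 and 209 ± 136 at the 3 times. Sham Atf3, a stress-induced transcription factor gene, was also as high as after the crush (580 ± 258 against 532 ± 79.1, 511 ± 61.3 and 547 ± 114 CPM).

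Cx3cl1 had 0 UMIs in the 215 sham cells, which allows up to 1.40% of cells with a UMI. It was at 0.196 (13), 0.600 (16), 1.49 (17-1) and 0.878 CPM (17-2) at 1 d, at 0.533 (14), 0.658 (15) and 0.311 (17-3) at 3 d, and at 0.276 (S), 0 (8), 0.564 (9), 1.16 (19-1) and 0 (19-2) at 7 d. A floor of 3 counts over the summed sham UMIs was set for sham alone. The levels pooled over the samples of a time (0.600, 0.536 and 0.356 CPM) were 10.9, 9.75 and 6.48 times that floor. These ratios rest on few UMIs in all (101 over the earlier set) and leave out the spread between samples. At 7 d, samples 8 and 19-2 were at 0 like sham. Cx3cl1 did not pass in edgeR at any time (adjusted p = 0.518, 0.966 and 1.000). Areg was 3.61 ± 2.01 CPM in sham and 8.27 ± 7.53, 6.67 ± 2.84 and 6.80 ± 4.06 at the 3 times. Il34 was 2.05 ± 1.16 in sham and 3.46 ± 2.66, 1.49 ± 0.809 and 1.84 ± 1.86 afterwards. Ccl2 was nearly level, at 314 ± 123, 314 ± 50.9, 357 ± 14.0 and 321 ± 58.6 CPM. Areg, Il34 and Ccl2 overlapped sham at each time, and the fitted log2 fold changes ran from -0.40 (Il34 at 3 d) to 1.15 (Areg at 1 d) with edgeR adjusted p of 0.633 or more. Without SNC 1 d sample 13 (18.6 CPM) the Areg value was 0.33. Lif was at 0 in all 715 SNC cells, which allows up to 0.42%, and its exact permutation tests gave p of 0.429, 0.571 and 0.333 (two-sided, unadjusted over 4 tests, smallest p possible 0.0286, 0.0571 and 0.0159).

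**Figure D4:**
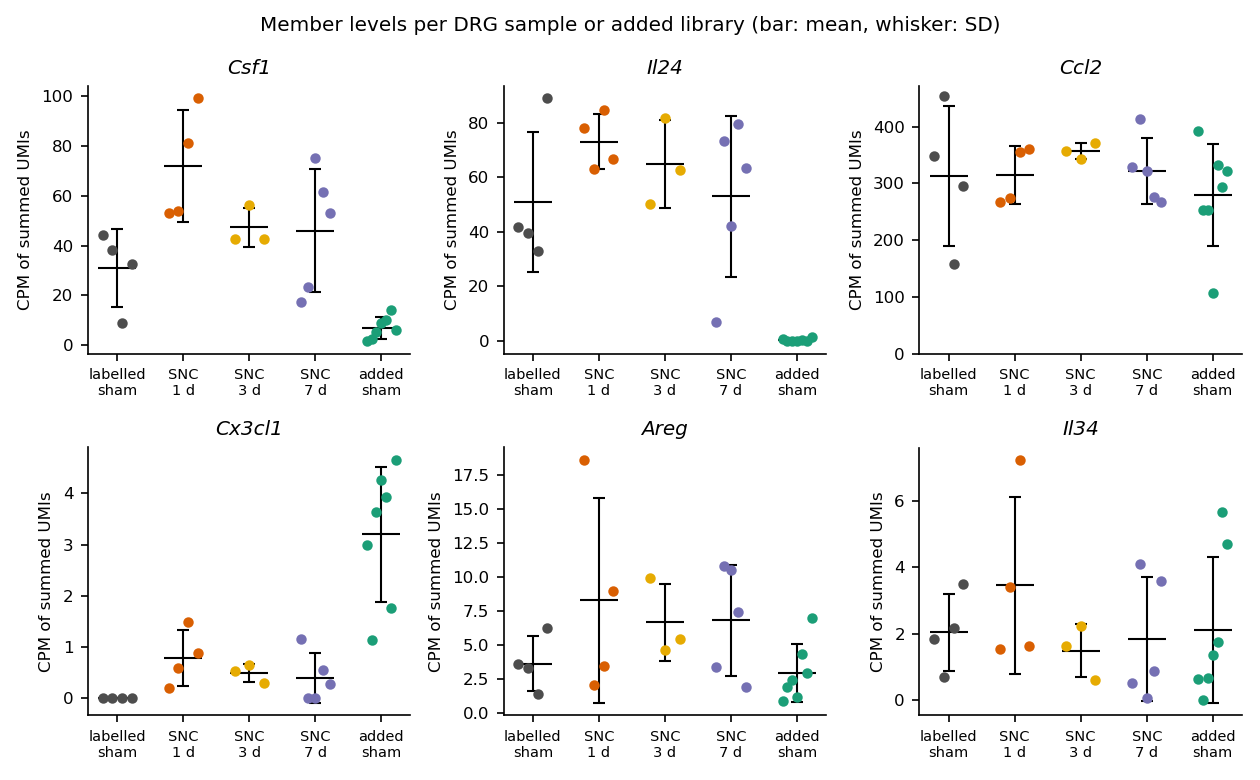
Levels of 6 signal genes in CPM (y axes) by group, each point a DRG sample, the bar the group mean and the whisker the SD, with the earlier sham samples marked as labelled sham. Csf1 at 1 d lies between 53.3 and 99.3 CPM, above all 4 sham samples, and Il24 in the added sham samples lies at or below 1.68 CPM.

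The last comparison set the 7 added sham samples against the 4 earlier sham samples. The sets differ in when they were made and in their clusters, and the labels of the added set name no dye, so set and handling cannot be told apart. The endothelial and mural list was at 8.21 to 27.9 CPM in the added and 1.75 to 4.91 in the earlier sham samples (Cldn5 at 0 in both), the fibroblast list at 6.14 to 41.4 and 2.72 to 13.9, and their part in the differences was not tested. Il24 was 0.857 (S1), 0.126 (S2), 0.202 (S3), 0 (S4), 0.420 (S5), 0.196 (S6) and 1.68 CPM (S7), every sample below every earlier sham sample (33.0 to 88.9). Its log2 fold change was -6.87 (SE 0.78, edgeR adjusted p = 7.94e-05). Csf1 was 1.57 (S1), 2.65 (S2), 5.34 (S3), 8.81 (S4), 10.3 (S5), 14.0 (S6) and 6.25 CPM (S7), a log2 fold change of -2.29 (SE 0.51, edgeR adjusted p = 0.00357), where only sham 4 overlapped. Of 15791 genes tested, 16.5% were called lower and 24.2% higher, against 2 and 1 of the 6 members tested. Il24 was the 1 member whose added samples all lay below the sham samples, where 7.72% of genes did.

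Cx3cl1 went the other way. It was 3.00 (S1), 1.14 (S2), 3.63 (S3), 4.27 (S4), 3.93 (S5), 1.77 (S6) and 4.65 CPM (S7) against 0 in all 4 earlier sham samples, at least 60.0-fold higher by the same floor (edgeR adjusted p = 0.000151). Cx3cl1 was the 1 member with every added sample above, where 19.9% of genes were. It passed the low-count filter through the added samples alone, so any added sample with a UMI lay above. That count therefore lends no support to a change of the members as a set. A Cx3cl1 UMI was found in 27.4% of added cells and 9.79% after thinning, against 4.41% and 1.48% in the earlier set. Its level was highest in added cluster 0, unnamed because both PEP and glial markers were raised (8 of 11 and 8 of 9), at 4.71 ± 2.20 CPM, and in NF-like added cluster 1 at 3.48 ± 1.69 CPM.

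Ccl2 (279 ± 90 CPM), Il34 (2.11 ± 2.19) and Areg (2.95 ± 2.12) were not called different from the earlier sham samples (edgeR log2 -0.30, -0.07 and -0.42, adjusted p = 0.461, 0.959 and 0.565). Added cluster 0 held 82.9% of Areg, 81.0% of Il34 and 70.9% of Csf1 UMIs in 27.0% of the cells. With the clusters that showed glial markers left out of both sets (136 added and 42 earlier cells), Areg was called lower in the added samples (log2 -2.54, edgeR adjusted p = 0.00256). The cells left out held 82.9% of Areg UMIs in the added set but 0.303% in the earlier set. The outcome was thus set by the removal and says nothing about Areg between the sets. Sprr1a itself had 6 UMIs in 1 of the 503 added cells, so no added sample had Sprr1a-high neurons. All 7 injury genes that were tested of the 8 listed (Atf3, Ecel1, Gal, Gap43, Jun, Sox11 and Sprr1a) were called lower in the added samples, with Atf3 at 154 ± 47.2 against 580 ± 258 CPM. Between Sprr1a classes 7 of 7 tested were called higher in Sprr1a-high neurons, Sprr1a itself by the split, and 0 of 7 were called after the crush. Over all genes, 16.5% were called lower in the added samples and 19.9% higher in Sprr1a-high neurons.

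**Figure D5:**
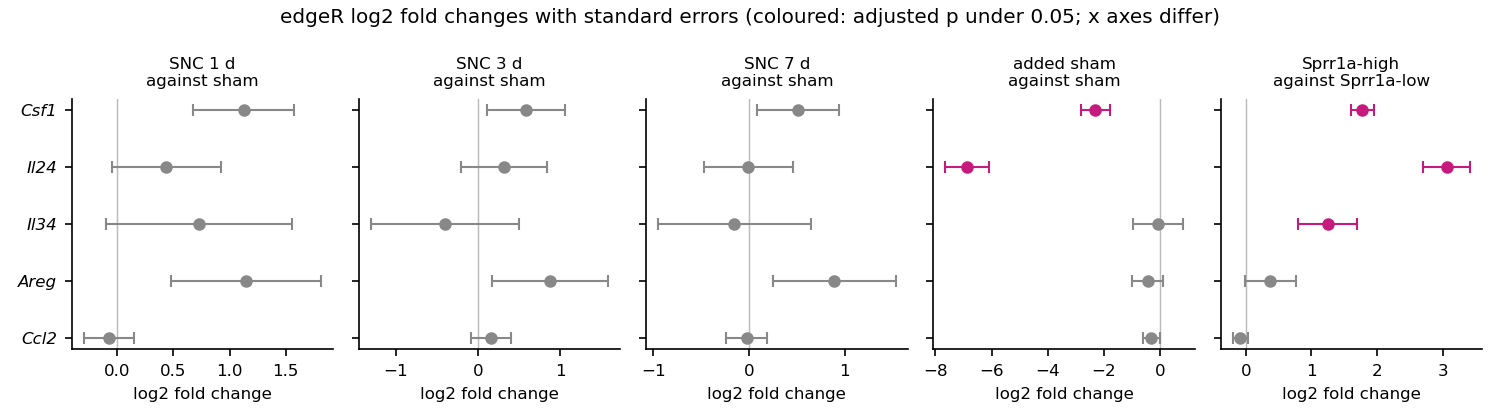
Fitted log2 fold changes (x axes, which differ in range) of Csf1, Il24, Il34, Areg and Ccl2 with their SE as whiskers in 5 comparisons, coloured where the edgeR adjusted p was under 0.05. Il24 and Csf1 stand at 3.06 and 1.78 in Sprr1a-high neurons and at -6.87 and -2.29 in the added sham samples, and Csf1 at 1.13 at SNC 1 d was not called.

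The receptors of these signals were mostly scarce in the picked cells. Egfr, the receptor of amphiregulin, was at 4.98 ± 2.33 CPM in sham, with a UMI in 32.1% of cells. That share was 43.3% at 1 d, 47.7% at 3 d, 57.5% at 7 d and 6.76% in the added samples. Ccr2, the receptor of CCL2, was not among the genes shared by the count files, so no level can be given. Csf1r, the receptor of CSF1 and IL-34, was at 2.53 ± 0.783 CPM in sham and 4.95 ± 2.56 in the added samples, with a UMI in 20.9% and 33.4% of cells. Cx3cr1 was at 0 except for 5 UMIs in 1 cell at 7 d, and Il20rb had 3 UMIs in all, while Il20ra and Il22ra1 had group means under 1 CPM. The myeloid marker list was at 12.0 to 23.5 CPM in sham and 8.87 to 21.6 CPM in the added samples. Lifr and its partner Il6st were the exceptions, at 207 ± 57.3 and 54.0 CPM in sham.

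Of 17 receptors and signal partners listed, 9 were tested after the crush and 0 were called. Over all genes, 19.9% were called higher and 18.1% lower between Sprr1a classes, and 24.2% and 16.5% between the sham sets. Between Sprr1a classes 8 were tested, and Egfr (log2 1.16, edgeR adjusted p = 0.000172), the sheddase gene Adam10 (0.54, 0.00027) and Lifr (0.44, 0.00457) were higher and Il6st lower (-0.39, 0.00117) in Sprr1a-high neurons, with a median of 0.31 against 0.00 over all genes. In the added sham samples 11 were tested, with Adam17 (log2 1.21, edgeR adjusted p = 0.00187) and Il6st (0.91, 0.00185) higher and Egfr (-3.18, 0.00394) and Lifr (-1.86, 0.000203) lower, at a median of -0.07 against 0.15.

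Of 32 related ligands (growth factors, neurotrophins, interleukins and chemokines), 16 were tested after the crush and 0 were called. The shares over all genes just given (19.9% and 18.1%, 24.2% and 16.5%) stand beside the counts below too. Between Sprr1a classes 12 were tested, and 3 were higher in Sprr1a-high neurons: the epidermal growth factor receptor ligand Tgfa (log2 1.27, edgeR adjusted p = 0.0152), the fibroblast growth factor Fgf2 (1.1, 1.08e-05) and the interleukin Il6 (0.89, 0.0261). The 5 lower ones were the chemokine Cxcl10 (-1.63), the gp130 ligand Cntf (-1.32), the neuregulin Nrg1 (-0.80), Hbegf, another ligand of the epidermal growth factor receptor (-0.64), and Bdnf (-0.56), and the median was -0.53 against 0.00. Cntf is known as a Schwann cell product. In the added sham samples 21 were tested, with 6 higher (Clcf1 at 5.25, Osm at 2.92, Cntf at 2.13, Hbegf at 1.86, Vegfa at 1.75 and Nrg1 at 1.18 on the log2 scale) and 2 lower, among them Fgf2 (-3.64), at a median of 0.37 against 0.15.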

How the data were processed

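Single DRG neurons were sequenced by a modified Smart-seq2 with cell barcodes and UMIs at the 3′ end. The authors deposited raw UMI counts per gene and cell, and the submitters' processing notes name STAR, featureCounts, SAMtools and UMI-tools with rat build Rnor_6.0. Counts are of transcript 3′ ends and were not scaled by length, so levels were compared within a gene only. Cells with at least 500 genes, 1000 UMIs and under 5% mitochondrial UMIs (13 genes) were kept, and no cell was found in 2 libraries with identical counts. Cell barcodes are not part of the cell names, so barcodes shared between libraries could not be counted, and doublets were not called since cells were picked singly. UMI counts were summed per DRG sample and fitted in edgeR 4.0.16 (quasi-likelihood, TMM, low-count filter, Benjamini-Hochberg over all genes tested) in R 4.3.3. SNC and sham were compared over the 16 earlier samples, added against earlier sham over 11 samples, and Sprr1a classes (a cell at 50 CPM or more of Sprr1a is high) with DRG sample as a block, samples with fewer than 3 cells of a class being left out. Clusters were made in Seurat 5.3.0 and named from marker lists, and a fall in order was called a gap where it exceeded the larger SD. Alternatives were DESeq2 1.42.0, its size factors, no filter, cells thinned to 20000 UMIs, other Sprr1a limits, other blocks, merged samples, year as a term, and each sample left out. Leaving out clusters with glial markers, added samples of 0 days and sham samples only were chosen after seeing the data. The named genes are the 7 members, the lists of receptors, related ligands and injury genes, and for each member the 5 genes with the highest mean rho, of which some are not reported here. The members and lists were chosen with earlier results of these data known. For other genes, coordinates and proteins were not used here.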

Additional observations from a re-analysis of the deposited data

Results flagged for a closer look

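Of 25 sets of member values in groups of 4 to 7 samples, 2 had a sample set apart from the others by Dixon's test, where chance alone gives about 1 in 20. Il24 in sham sample Xin was 88.9 CPM, against 33.0 to 41.9 CPM in the other 3 sham samples. Lif in added sham sample S7 was 0.0745 CPM, from 2 UMIs.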

How the results depend on the processing

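With 3 to 7 samples in a group, and Lif and Cx3cl1 on few UMIs, small changes could not be seen. No member was called after the crush in any alternative. These log2 values turned in sign there. For Ccl2, thinning gave 0.0052 at 1 d and 0.033 at 7 d, leaving out the clusters with glial markers gave 0.093 and 0.18, and the year as a term gave -0.19 at 3 d. Leaving out 1 sample in turn gave -0.30 to 0.14 for Ccl2 at 1 d, -0.071 to 0.37 at 3 d and -0.25 to 0.19 at 7 d. For Il34, leaving out the glial-marker clusters gave 0.36 at both 3 d and 7 d, and 1 sample in turn -0.62 to 0.25 at 7 d. For Il24 at 7 d, thinning gave 0.00072, merged samples 0.081, the year 0.064, and 1 sample in turn -0.21 to 0.46. In the added sham samples Csf1 was called lower in 16 of 16 alternatives, Il24 in 17 of 17 and Cx3cl1 higher in 16 of 16 that tested them. Thinning left 1 member called (Il24), because Csf1 and Cx3cl1 no longer passed the filter, and Il34 ran from -0.53 to 0.28 with 1 sample left out in turn. Between Sprr1a classes Csf1 and Il24 were called in 27 of 28 alternatives and Il34 in 11 of 20. Among these, the fit on the earlier samples only repeated the main fit, as no added sample had Sprr1a-high neurons, and adds nothing. Over all genes, 4525 were called between the classes, 3004 without the block, 573 with cluster in it, 2004 after thinning and 220 in sham samples only, and 6415 between the sham sets, or 3410 with the added samples of 0 days only. With sham samples only, 0 members were called, on 4 samples. Without the replicate block of DRG sample, 2 members were called, Csf1 (1.71) and Il24 (2.86), and Il34 was not (1.22). With cluster added to the block Ccl2 was 0.60, in sham samples only 0.30, and Areg at a limit of 200 CPM was -1.05. The cause of these turns was not tested.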
